A study of Mus musculus with 6 samples.

Results

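The genes described here are 8 markers of the pancreatic duct and of simple epithelia in general, namely the keratins *Krt7*, *Krt8*, *Krt18*, *Krt19* and *Krt23*, the mucin *Muc1*, *Spp1*, which codes for osteopontin, and the annexin *Anxa4*. They were chosen by name, with earlier results of these data known, and matched by Ensembl identifier. All 8 were found among the 37224 genes of the count table and passed the filter on low counts, which kept 15578 genes. RNA of whole wild-type (wt) C57/Bl6J mouse pancreata was sequenced at 13.5 and 15.5 days post coitum (dpc), and every stage was represented by 3 samples, for each of which the pancreata of at most 3 embryos had been pooled. The labels name no mutation, transgene or treatment. The comparison between the stages spans the secondary transition, when acinar and endocrine cells differentiate in large numbers and the remaining epithelial trunk gives rise to the ducts. Total counts ranged from 12895732 to 16389237 at 13.5 dpc and from 10546028 to 12491550 at 15.5 dpc, and single counts of the 8 genes ranged from 55 to 15697.

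Keratins are the intermediate filament proteins of epithelial cells. Each filament is built from pairs of an acidic type I chain, here *Krt18*, *Krt19* and *Krt23*, with a basic type II chain, here *Krt7* and *Krt8*. *Krt8* and *Krt18* are made by practically all simple epithelia, including acinar cells, whereas *Krt7* and *Krt19* mark the duct in the adult pancreas. Muc1 is a mucin anchored in the apical membrane that lines the lumen, osteopontin is a secreted phosphoprotein that binds integrins and Cd44, and Anxa4 is an annexin, which binds membrane phospholipids when calcium is present. Because epithelium, mesenchyme and other cells were sequenced together, a change in the number of cells of a type and a change in the RNA per cell cannot be told apart in these data.

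On the mm10 genome, 3 of the keratin genes lie in the type II keratin cluster of chromosome 15. *Krt7* spans chr15:101411043-101430313 on the plus strand, *Krt8* spans chr15:101996711-102004342 on the minus strand and *Krt18* spans chr15:102028216-102032026 on the plus strand. *Krt8* and *Krt18* are 23873 bases apart with 0 genes of the table between them and are read in opposite directions away from each other, so that *Krt18*, a type I gene, sits beside its type II partner. The type I genes *Krt23* (chr11:99477974-99493137) and *Krt19* (chr11:100140810-100148665) are both on the minus strand of chromosome 11, 647672 bases apart with 80 genes of the table between them. *Muc1* lies at chr3:89229057-89233381 and *Spp1* at chr5:104435118-104441050, both on the plus strand, and *Anxa4* at chr6:86736840-86793584 on the minus strand. No exon of the 8 genes overlapped an exon of another gene of the table. However, 29.7% of the 50-base windows of *Krt8* transcripts also occur in transcripts of *Krt8-ps* or *Gm36026*, and 11.59% of those of *Spp1* occur in *Gm42793*. Since only uniquely aligned reads were counted, the counts of these 2 genes are less certain than those of the others, for which at most 1.37% of the windows were shared.

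The start regions of 5 of the genes are shown because *Krt8*, *Krt18* and *Muc1* rose together, *Krt7* did not pass the test and *Spp1* fell, as described below. Each sequence runs 5′ to 3′ along the strand of the gene and holds the 250 bases before and the first 30 bases after the start in RefSeq (GRCm38.p6, the assembly of mm10). RefSeq start regions were found for 7 of the 8 genes, 9 in all. *Spp1* and *Anxa4* each had a second one, with its start 1074 and 18470 bases downstream of the first base of the gene, which is not shown. Capitals mark matches, on either strand, to 8 motifs: the TATA box (TATAAA), the GC box (GGGCGG), AP-1 (TGANTCA), TEAD (GGAATG), RBPJ (GTGGGAA), HNF1, SOX9 (ACAATG) and KLF (GGGTGTGG).
Krt8 (chr15:102004313-102004592, minus strand): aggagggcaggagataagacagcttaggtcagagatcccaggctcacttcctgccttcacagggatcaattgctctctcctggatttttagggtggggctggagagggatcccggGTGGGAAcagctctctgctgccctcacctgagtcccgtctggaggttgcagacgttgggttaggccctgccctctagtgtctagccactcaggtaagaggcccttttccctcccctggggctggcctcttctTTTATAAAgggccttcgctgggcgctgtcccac
Krt18 (chr15:102027966-102028245, plus strand): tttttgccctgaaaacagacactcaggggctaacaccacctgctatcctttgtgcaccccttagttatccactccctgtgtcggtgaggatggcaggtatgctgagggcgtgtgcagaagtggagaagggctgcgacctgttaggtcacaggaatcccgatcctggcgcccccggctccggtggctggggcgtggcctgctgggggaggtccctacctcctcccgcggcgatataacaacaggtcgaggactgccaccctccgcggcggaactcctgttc
Krt7 (chr15:101412153-101412432, plus strand): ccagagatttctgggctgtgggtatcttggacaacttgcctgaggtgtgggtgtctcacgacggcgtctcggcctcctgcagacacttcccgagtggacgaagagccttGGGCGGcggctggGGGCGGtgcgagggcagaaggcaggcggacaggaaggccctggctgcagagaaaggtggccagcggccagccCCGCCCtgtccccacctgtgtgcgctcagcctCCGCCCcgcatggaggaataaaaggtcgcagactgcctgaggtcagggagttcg
Muc1 (chr3:89228806-89229085, plus strand): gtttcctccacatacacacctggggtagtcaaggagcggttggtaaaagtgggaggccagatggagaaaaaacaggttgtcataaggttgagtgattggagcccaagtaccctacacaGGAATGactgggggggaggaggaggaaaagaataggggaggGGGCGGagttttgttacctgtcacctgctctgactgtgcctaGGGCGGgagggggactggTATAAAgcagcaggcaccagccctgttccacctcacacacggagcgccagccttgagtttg
Spp1 (chr5:104434861-104435140, plus strand): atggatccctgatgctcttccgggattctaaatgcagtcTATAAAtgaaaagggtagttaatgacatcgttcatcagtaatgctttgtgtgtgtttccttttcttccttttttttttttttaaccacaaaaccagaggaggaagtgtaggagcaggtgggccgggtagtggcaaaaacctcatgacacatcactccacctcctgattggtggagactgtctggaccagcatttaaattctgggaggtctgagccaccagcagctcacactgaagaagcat

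In the *Muc1* region the TATA box began 31 bases before the start, and 2 GC boxes and 1 TEAD match lay upstream of it. In *Krt8* the letters TTTATAAA, which match the TATA box on both strands, lay at the start itself, and 1 RBPJ match lay further upstream. The *Krt7* region held 4 GC boxes, and that of *Spp1* a TATA match 211 bases before the start. None of the 8 motifs was found in the *Krt18* region. Of the regions not printed, *Krt23* held 1 SOX9 match and the first region of *Anxa4* 1 GC box just after the start. The second regions of *Spp1* and *Anxa4* held none of the motifs. Among all 32851 RefSeq start regions of this length, 34.7% held the GC box, 13.9% the TEAD, 13.1% the TATA, 11.9% the SOX9, 7.5% the AP-1, 5.9% the RBPJ, 3.4% the KLF and 0.1% the HNF1 letters. These matches describe the letters only. The *Krt7* region begins downstream of the first base of the gene in the annotation used for the loci, since RefSeq starts this gene 1360 bases further in.

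Levels of different genes were compared as normalised counts per kilobase of exon. At 13.5 dpc *Spp1* was the most abundant of the 8 at 7129 ± 271 (SD, n = 3), followed by *Krt8* at 2262 ± 48.7 and *Krt18* at 2251 ± 123, whose samples overlapped. *Krt19* at 450.5 ± 19.8 and *Muc1* at 443.6 ± 46.4 also overlapped. *Muc1* stood above *Anxa4* at 386.2 ± 24.8 in each replicate, though their ranges overlapped. *Krt7* followed at 295.9 ± 7.93 and *Krt23* was far lower at 34.15 ± 4.22. At 15.5 dpc the order of *Krt18* at 5076 ± 1391 and *Spp1* at 5052 ± 287 was no longer clear. *Krt18* stood above *Spp1* in replicate 1 and below it in replicates 2 and 3. Both stood above *Krt8* at 3821 ± 904 in each replicate. *Muc1* at 1279 ± 193 stood above *Krt19* at 908.2 ± 324 in each replicate. *Krt19* stood above *Anxa4* at 679.8 ± 20.0 in replicates 1 and 3 but not in replicate 2. *Krt7* at 311.0 ± 49.9 and *Krt23* at 65.75 ± 13.7 remained the lowest. Over both stages *Spp1* ranked 72nd by this level among the 15578 genes tested, *Krt18* 146th and *Krt8* 191st, whereas *Krt7* ranked 3204th and *Krt23* 10143rd. The order in the middle depends on the length used. Per kilobase of the longest coding transcript, the means at 13.5 dpc were 864.6 for *Anxa4*, 530.3 for *Krt19*, 509.4 for *Krt7* and 464.1 for *Muc1*, and at 15.5 dpc they were 1522 for *Anxa4*, 1338 for *Muc1*, 1069 for *Krt19* and 535.5 for *Krt7*. *Spp1*, *Krt18* and *Krt8* stood above these 4 genes and *Krt23* below them with either length.

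Between 13.5 and 15.5 dpc, 6 of the 8 genes rose (*Krt8*, *Krt18*, *Krt19*, *Krt23*, *Muc1* and *Anxa4*), *Spp1* fell and *Krt7* passed in neither direction. The test was edgeR's quasi-likelihood test with Benjamini-Hochberg adjustment over all genes tested, called at an adjusted p at or below 0.05. Of all genes tested, 22.3% were called, 11.6% as higher and 10.7% as lower. The median log2 fold change was 0.87 over the 8 genes and -0.01 over all genes tested. For 7 of the 8 genes every sample of one stage lay above every sample of the other, against 46.4% of all genes. With narrower thresholds (adjusted p at or below 0.1, a mean above 100 normalised counts at 13.5 or 15.5 dpc, and a fold below 0.6 or above 1.6), 6 of the 8 genes passed, all but *Krt7* and *Spp1*, against 9.88% of all genes.

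**Figure D1:**
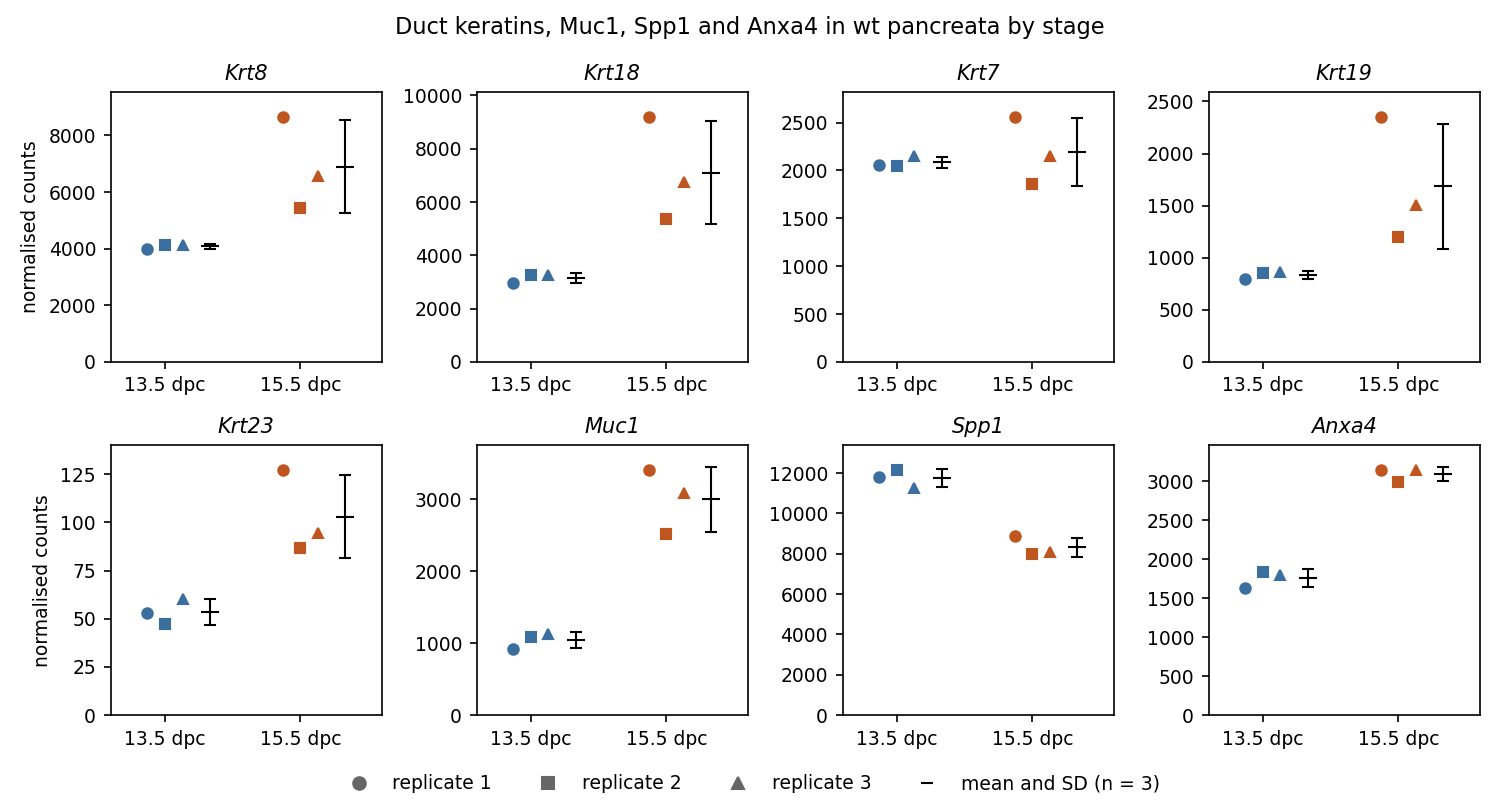
Normalised counts (y axis, from 0) of each of the 8 genes in the 3 samples at 13.5 dpc and the 3 at 15.5 dpc (x axis), with the mean and SD beside them. *Krt7* is the gene whose stages overlap, *Spp1* is lower at 15.5 dpc in all 3 samples, and the other 6 genes are higher in all 3.

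The broad epithelial pair was examined first. *Krt8* had 3982, 4123 and 4143 normalised counts in replicates 1, 2 and 3 at 13.5 dpc and 8665, 5449 and 6577 at 15.5 dpc. All 3 later samples were above all 3 earlier ones, but they spread widely, with a coefficient of variation of 23.7% against 2.15%. The fold change was 1.69 (log2 0.76 ± 0.17 SE, 95% interval 0.37 to 1.14, adjusted p = 0.0184). *Krt18*, its type I partner, had 2953, 3246 and 3255 normalised counts at 13.5 dpc and 9209, 5365 and 6744 at 15.5 dpc. It rose 2.25-fold (log2 1.17 ± 0.19 SE, adjusted p = 0.00611), and its lowest later sample stood well above its highest earlier one. The call of *Krt18* held under all 15 alternatives, whereas that of *Krt8* was lost when any 1 of the 13.5 dpc samples or 15.5 dpc replicate 3 was left out (log2 0.74 to 0.79, adjusted p from 0.063 to 0.0854).

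The keratins that mark adult ducts took different courses. *Krt19* had 793.6, 853.1 and 860.5 normalised counts at 13.5 dpc and 2355, 1195 and 1504 at 15.5 dpc, with replicate 1 far above the others of its stage. It rose 2.01-fold (log2 1.01 ± 0.23 SE, 95% interval 0.47 to 1.55, adjusted p = 0.0217), and the call was lost without any 1 of the 13.5 dpc samples or 15.5 dpc replicate 3 (adjusted p from 0.0597 to 0.0917). *Krt7* had 2057, 2050 and 2150 normalised counts at 13.5 dpc and 2563, 1863 and 2151 at 15.5 dpc. Its later samples lay above, below and at the level of the earlier ones. The fold change was 1.05 (log2 0.07 ± 0.13 SE, adjusted p = 0.696), with a 95% interval from 0.857-fold to 1.29-fold. The sign of this small difference turned with 15.5 dpc replicate 1 left out (log2 -0.055). With library size alone as the scale it was -0.15, where the median of all genes was also shifted, to -0.22, so that *Krt7* stayed above that median. With the trend with gene length removed it was 0.31 (adjusted p = 0.244).

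*Krt23*, a type I keratin whose part in filaments is less well known, was present at low counts. It had 52.85, 47.16 and 60.34 normalised counts at 13.5 dpc and 127.3, 86.92 and 94.44 at 15.5 dpc. It rose 1.91-fold (log2 0.93 ± 0.20 SE, adjusted p = 0.0157) and every later sample exceeded every earlier one. Without 13.5 dpc replicate 1 or 2 or 15.5 dpc replicate 3 the adjusted p was 0.0735, 0.0754 and 0.051.

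*Muc1*, the mucin of the apical membrane, showed the largest fold change of the 8 genes. It had 916.6, 1085 and 1121 normalised counts at 13.5 dpc and 3409, 2513 and 3080 at 15.5 dpc. It rose 2.88-fold (log2 1.53 ± 0.14 SE, 95% interval 1.20 to 1.86, adjusted p = 0.000911), a change larger in size than that of 97.1% of all genes tested. *Anxa4*, the membrane-binding annexin, had 1627, 1840 and 1798 normalised counts at 13.5 dpc and 3139, 2984 and 3144 at 15.5 dpc. It rose 1.76-fold (log2 0.82 ± 0.09 SE, adjusted p = 0.0015), and its later samples were the most alike of all 8 genes, with a coefficient of variation of 2.95%. The calls of *Muc1* and *Anxa4* held under all 15 alternatives.

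*Spp1* was the member that fell. It had 11808, 12161 and 11275 normalised counts at 13.5 dpc and 8870, 8012 and 8095 at 15.5 dpc, so that the stages were separated by a wide gap. It fell to 0.709 of the earlier level (log2 -0.50 ± 0.09 SE, 95% interval -0.71 to -0.28, adjusted p = 0.00981). The log2 fold change lay between -0.46 and -0.54 with each sample left out in turn, but the adjusted p rose to between 0.0651 and 0.0661 without 13.5 dpc replicate 1 or 2 or 15.5 dpc replicate 3. Set against *Muc1* in the same libraries, a pair chosen after their values were seen, the level of *Spp1* per kilobase was 18.3, 16.0 and 14.3 times that of *Muc1* at 13.5 dpc and 3.7, 4.54 and 3.74 times at 15.5 dpc.

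**Figure D2:**
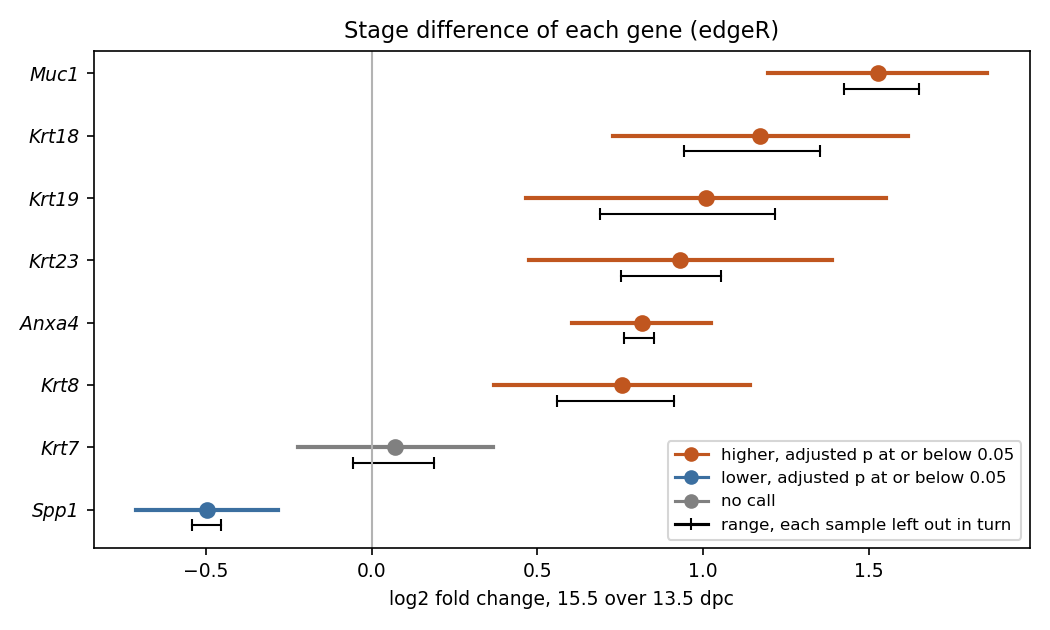
Log2 fold change of each gene, 15.5 over 13.5 dpc (x axis), from edgeR, with thick bars for the 95% interval and thin bars for the range with each of the 6 samples left out in turn. *Muc1* stands highest at 1.53 and *Spp1* lowest at -0.50, and only the interval of *Krt7* includes 0.

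Since keratin filaments take up type I and type II chains in equal number, the balance of the 2 types was compared. Summed over the 5 keratins, the type I to type II ratio of counts per kilobase was 1.03, 1.09 and 1.09 at 13.5 dpc and 1.54, 1.38 and 1.44 at 15.5 dpc. The mean rose from 1.07 ± 0.0345 to 1.45 ± 0.0782 (SD, n = 3) and the stages did not overlap (log2 difference 0.44, two-sided exact permutation p = 0.1, the smallest that 3 against 3 samples allow). Ratios within a library do not depend on how libraries are scaled to each other, but they do depend on how the counts of a library run with gene length. The ratio of *Krt18* to *Krt8* alone went from 0.995 ± 0.0333 to 1.32 ± 0.0505, and that of *Krt7* to *Krt8* from 0.131 ± 0.00305 to 0.0823 ± 0.00602. *Krt19* stood at 0.2 ± 0.00232 of *Krt18* at 13.5 dpc and at 0.176 ± 0.0143 at 15.5 dpc, and at 0.199 ± 0.0045 and 0.233 ± 0.0273 of *Krt8*, so that it fell behind the one and gained on the other. The gain on *Krt8* was largest in 15.5 dpc replicate 1, at 0.265 against 0.213 and 0.222 in replicates 2 and 3. All 4 ratios were separate between the stages, each with an exact permutation p of 0.1, the smallest possible. The share of other gene pairs that separate in this way was not measured, and 46.4% of single genes were separate in normalised counts. With the trend of each library with gene length removed in the edgeR fit, the log2 fold change of *Krt7* (7049 exon bases) was 0.31 and that of *Krt8* (1805 exon bases) 0.58. The difference between them was then -0.27 on the log2 scale, against -0.69 without this step, and that between *Krt18* and *Krt8* 0.35 against 0.42. That of *Krt19* from *Krt18* was -0.1 against -0.163, and that of *Krt19* from *Krt8* 0.247 against 0.253. The exact value of a ratio depends on the gene lengths used: with raw counts the type I to type II ratio was 0.655 and 0.969. With the longest coding transcript of each gene, an alternative chosen after seeing the data because the exon length of *Krt7* exceeds that of its longest coding transcript (4094 bases), it was 1.06 and 1.48.

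Of all keratin genes, 24 had at least 10 counts over the 6 samples, and the 5 described here held 95.9% ± 0.274 of the keratin level per kilobase at 13.5 dpc and 97.7% ± 0.317 at 15.5 dpc (SD, n = 3). At 13.5 dpc *Krt8* held 41.0% ± 0.552 and *Krt18* 40.8% ± 0.857. At 15.5 dpc *Krt18* held 48.6% ± 0.779 and *Krt8* 36.8% ± 0.858. These shares carry the same uncertainty in the counts of *Krt8*. The share of *Krt7* went from 5.36% ± 0.156 to 3.04% ± 0.291, while that of *Krt19* was 8.16% ± 0.0785 and 8.58% ± 0.798, with overlapping samples, and *Krt23* stayed below 1% in each.

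**Figure D3:**
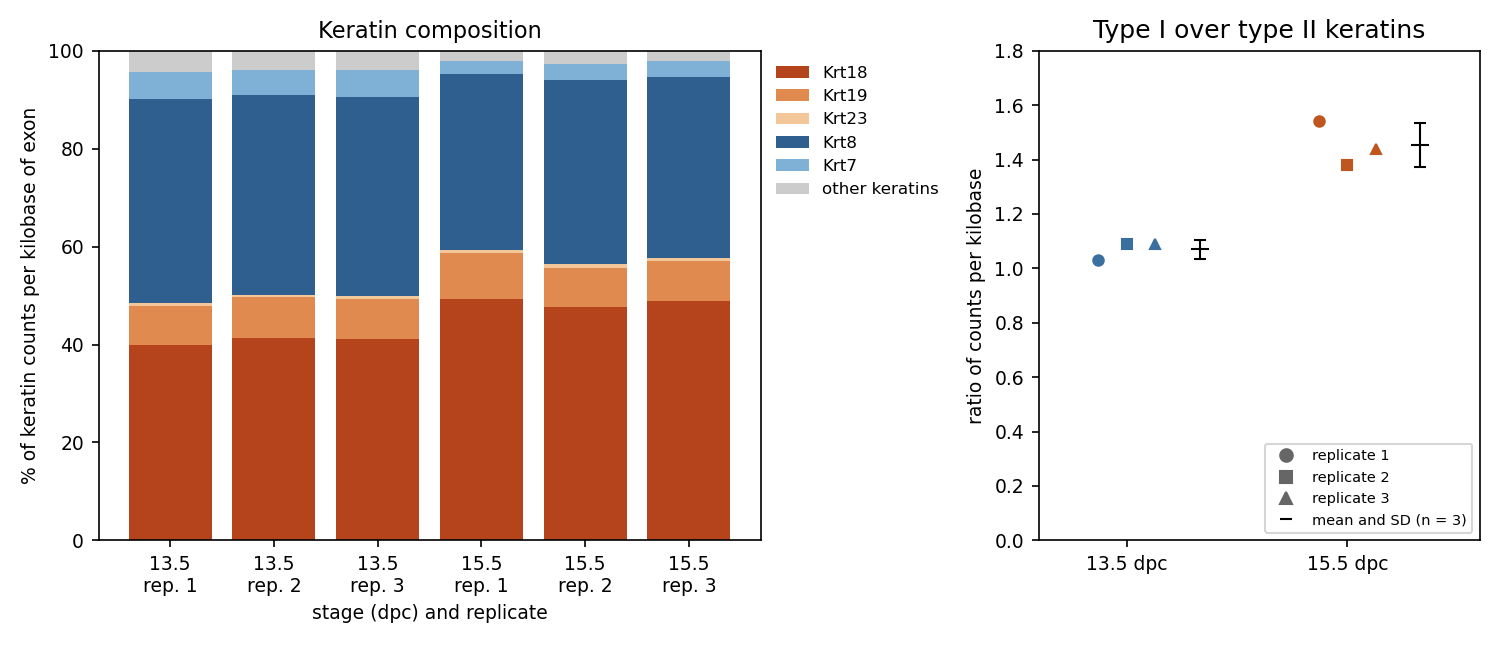
Left, the share of each keratin in the keratin counts per kilobase of exon (y axis, %) in each of the 6 samples, with type I genes in red shades, type II in blue and all other keratins in grey. Right, the ratio of the type I to the type II keratins described here per sample, with mean and SD, which lies between 1.03 and 1.09 at 13.5 dpc and between 1.38 and 1.54 at 15.5 dpc.

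The share of epithelium in the samples can differ between stages, so each gene was also set against 18 genes of epithelial junctions and surfaces in the same library, among them *Epcam* and *Cdh1* (E-cadherin). The mean log2 level of these 18 genes rose by 0.43 between the stages, and 11 of them were called as higher and *Cdh3*, which codes for P-cadherin, as lower. Relative to them, all 8 genes differed without overlap between the stages. This is read against the 65.4% of all genes for which the same was true. *Muc1* was higher by 1.095 on the log2 scale, *Krt18* by 0.71, *Krt19* by 0.53, *Krt23* by 0.48, *Anxa4* by 0.39 and *Krt8* by 0.31. *Krt7* was lower by a log2 difference of -0.37, with 0.56, 0.54 and 0.56 at 13.5 dpc and 0.32, 0.05 and 0.20 at 15.5 dpc, and *Spp1* by a log2 difference of -0.92. Each exact permutation p was 0.1, the smallest possible. Relative to *Cdh1* alone, only *Krt18*, *Muc1*, *Spp1* and *Anxa4* remained separate between the stages. The share of all genes separate relative to *Cdh1* was not measured. *Epcam* was at 6184, 6294 and 5815 normalised counts at 13.5 dpc and at 9231, 6295 and 7602 at 15.5 dpc, and *Cdh1* at 6047, 6611 and 7024 and at 7767, 9963 and 8735.

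**Figure D4:**
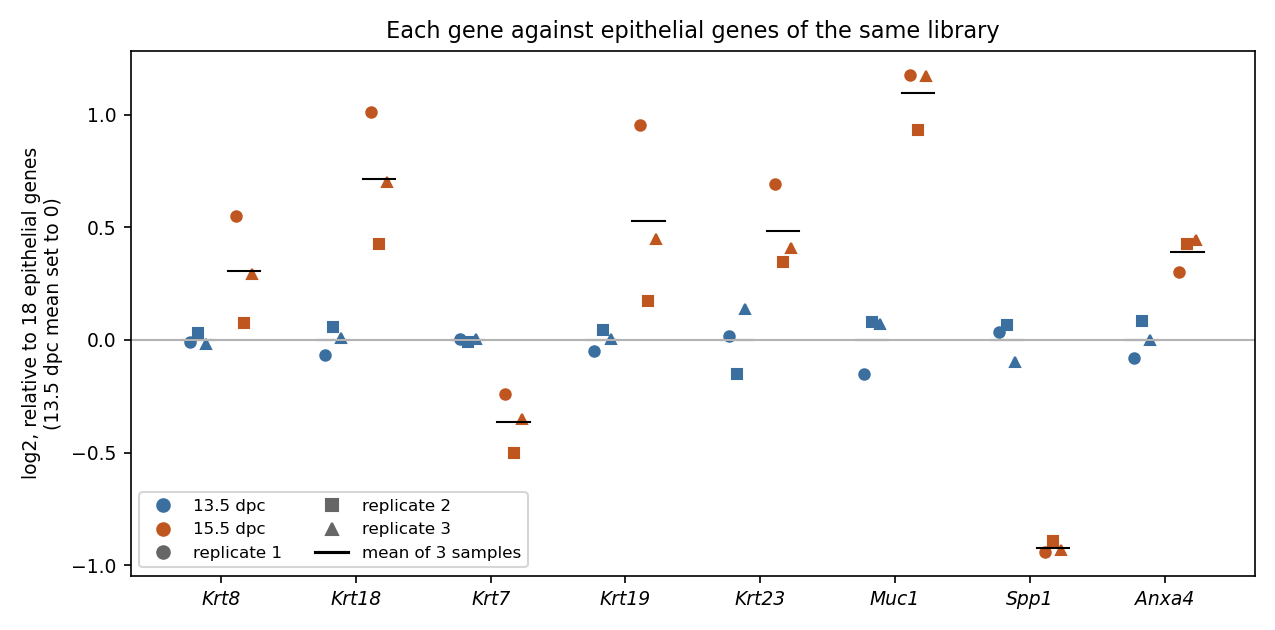
Log2 level of each gene less the mean of 18 epithelial genes of the same library (y axis), with the 13.5 dpc mean set to 0, for the 3 samples of each stage, with lines for the mean of each stage. *Krt7* and *Spp1* lie below 0 in all 3 samples at 15.5 dpc, at means of -0.37 and -0.92, and the other 6 genes above it.

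The samples at 15.5 dpc differed among themselves in a shared way. For 7 of the 8 genes replicate 1 was the highest and replicate 2 the lowest, and for *Anxa4* replicate 3 was the highest by a small margin and replicate 2 the lowest. The summed level of 11 acinar markers, such as *Cpa1*, which codes for a carboxypeptidase, ran in the same order, at 283249, 151816 and 228757 normalised counts in replicates 1, 2 and 3, against 46271 to 54082 at 13.5 dpc. So did that of the epithelial genes, at 65853, 48731 and 53248. The mesenchymal markers, which include the collagens *Col1a1* and *Col3a1*, ran in the opposite order, at 90384, 134179 and 116966 against 122518 to 138538 at 13.5 dpc. The part of these differences in cell makeup in the results was not tested. Without 15.5 dpc replicate 1 the 7 calls held, while the log2 fold change was smaller for *Krt8* (0.56), *Krt18* (0.94) and *Krt19* (0.69).

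**Figure D5:**
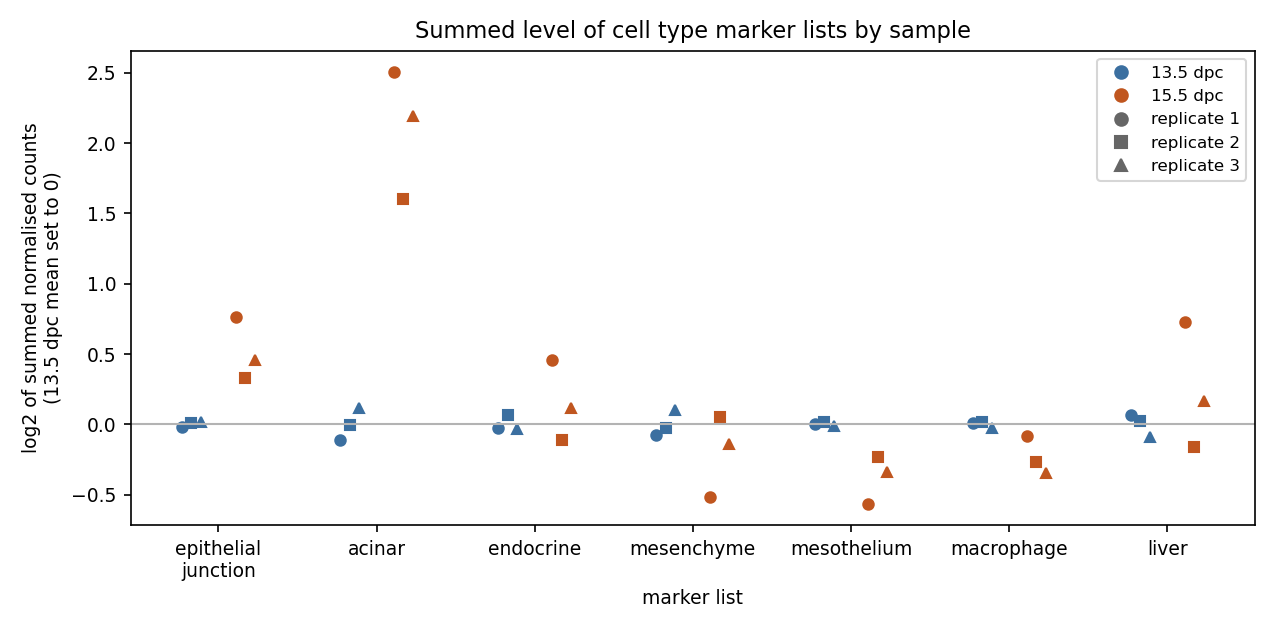
Log2 of the summed normalised counts of 7 lists of cell type markers (x axis), with the 13.5 dpc mean of each set to 0, for the 3 samples of each stage. At 15.5 dpc the epithelial, acinar, endocrine and liver sums are highest in replicate 1 and lowest in replicate 2, and the mesenchymal and mesothelial sums the reverse.

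Of the epithelial genes, *Prss8* and *Spint2*, which code for a surface protease and a protease inhibitor, rose 2.56-fold and 2.16-fold, and *Rab25*, a regulator of apical recycling, 1.99-fold, while *Cdh3* fell to 0.536 of its level. *Spint2*, also the most abundant of them per length, lost its call without any 1 of the 13.5 dpc samples or 15.5 dpc replicate 3. Of the 11 acinar genes 10 rose, led by *Cela2a* (log2 6.17, or 5.56 without 15.5 dpc replicate 1), *Gp2* (4.003) and *Cela1* (2.98), with *Cpa1* (2.04) the most abundant. Of 10 endocrine genes, *Ins2* (2.64), *Scg2* (1.41) and *Pcsk2* (0.49) rose and *Chgb* (-0.63) and *Neurog3* (-0.33) fell, and *Gcg*, the most abundant, was at -0.32 (edgeR, adjusted p = 0.114). Of 10 mesenchymal genes, *Dcn* (0.61) and *Lum* (0.43) rose and *Pdgfra* (-1.33), *Twist1* (-0.60) and *Prrx1* (-0.54) fell, and *Col1a1*, the most abundant, was at -0.12 (adjusted p = 0.602). The calls of *Pcsk2*, *Neurog3*, *Dcn*, *Lum*, *Twist1* and *Prrx1* were each lost without 13.5 dpc replicate 1 or 15.5 dpc replicate 3, among other samples.

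Markers of other cells that make some of these proteins were also measured. Mesothelium, which makes *Krt8*, *Krt18* and *Krt19*, was followed with 9 markers, of which *Msln*, the gene of mesothelin, rose and *Wt1*, *Bnc1* and *Lrrn1* fell, while *Upk3b*, the most abundant, was at -0.01 on the log2 scale (adjusted p = 0.928). Their sum ranged from 3242 to 3305 normalised counts at 13.5 dpc and from 2213 to 2792 at 15.5 dpc. The call of *Bnc1* was lost without 13.5 dpc replicate 1 or 15.5 dpc replicate 3, and that of *Lrrn1* without any 1 of the 13.5 dpc samples or 15.5 dpc replicate 3. The part of mesothelium in the results was not tested. Macrophages, a source of *Spp1*, were followed with 12 markers, of which *Csf1r*, *Adgre1*, *Cx3cr1* and *Fcgr1* fell, and their sum ranged from 3208 to 3304 at 13.5 dpc and from 2575 to 3085 at 15.5 dpc. *Adgre1*, which codes for F4/80, had a log2 fold change of -0.64 ± 0.16 SE (adjusted p = 0.0272), while *Lyz2*, the most abundant per length over the 6 samples, had 0.45 ± 0.19 SE (adjusted p = 0.123). All 4 calls were lost without any 1 of the 13.5 dpc samples or 15.5 dpc replicate 3. Those of *Adgre1*, *Cx3cr1* and *Fcgr1* were also lost with the replicate number as a block, and that of *Fcgr1* without 15.5 dpc replicate 2. The part of macrophages in the fall of *Spp1* was not tested.

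Epithelium of the stomach and intestine was low. Of its 12 markers, *Muc5ac* and *Tff1* had 0 counts in all 6 samples and *Fabp2* and *Gkn1* at most 3 in any sample, but *Tff2*, a trefoil peptide gene, rose from 5.682 ± 2.693 to 152.9 ± 111.2 normalised counts and *Vil1*, the gene of villin, 2.29-fold. The later level of *Tff2* rests largely on replicate 1, with 280.9 normalised counts against 80.79 and 96.96, and its log2 fold change was 4.69, or 3.92 without that sample. The sum of the list ranged from 191.3 to 222.7 at 13.5 dpc and from 433.6 to 710.0 at 15.5 dpc. Of 8 markers of squamous epithelium 4 passed the filter, and of these *Perp*, which codes for a desmosome protein, was called, as higher by 3.56-fold. *Sprr3* had 0 counts. Of 8 liver genes, *Serpina1a*, *Fgb* and *Afp* fell, the last of them not without 13.5 dpc replicate 1 or 2 or 15.5 dpc replicate 3, and the sum, most of it *Ttr*, ranged from 6208 to 6940 and from 5904 to 10970. The part of these cells in the results was not tested.

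Other genes of the duct were compared with the same test, which called 22.3% of all genes. Of 21 tested, *Clu*, *Ehf* and *Aqp1* rose, *Sox9* fell and 17 were not called, with a median log2 fold change of 0.12. *Clu*, which codes for the secreted chaperone clusterin, went from 4420 ± 347.3 to 16896 ± 4246 normalised counts (SD, n = 3), or 3.82-fold (log2 1.93 ± 0.19 SE, adjusted p = 0.000994). *Ehf*, an epithelial ETS factor, had a fold of 1.49 and *Aqp1*, a water channel, of 1.48. *Sox9*, the transcription factor of trunk progenitors and ducts, went from 2541 ± 111.0 to 1591 ± 266.0 (log2 -0.68 ± 0.13 SE, adjusted p = 0.0123). *Ambp*, the most abundant of the list per length over the 6 samples, had overlapping samples (log2 0.12 ± 0.11 SE, adjusted p = 0.434). The call of *Clu* held in all 15 alternatives, and those of *Sox9*, *Ehf* and *Aqp1* were lost, among others, without 13.5 dpc replicate 1 or 2 or 15.5 dpc replicate 3. Without any 1 of those 3 samples the list gave 1 call.

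Genes whose proteins anchor or link keratin filaments were compared next. Of 10 tested, *Pkp2*, *Pkp3* and *Jup* rose. *Pkp2*, which codes for a plakophilin of the desmosome, went from 209.9 ± 8.067 to 428.9 ± 19.88 normalised counts (2.04-fold, adjusted p = 0.000976) and *Pkp3*, which codes for another, from 302.5 ± 6.165 to 474.3 ± 48.62 (1.57-fold, adjusted p = 0.00694). *Jup*, the gene of plakoglobin, had a fold of 1.32 (adjusted p = 0.019). *Dsp*, the gene of desmoplakin, which ties keratin filaments to the desmosome, had overlapping samples (log2 0.10 ± 0.22 SE, adjusted p = 0.749). The median of the 10 genes was -0.01 on the log2 scale, equal to that of all genes. The calls of *Pkp2* and *Pkp3* held in all 15 alternatives, while that of *Jup* was lost with the replicate block and without any 1 of the 13.5 dpc samples or 15.5 dpc replicate 3.

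Among 12 other intermediate filament genes, *Lmna*, *Prph* and *Nes* rose and the neurofilament genes *Nefl* and *Nefm* fell. *Lmna*, which codes for the A-type lamins of the nucleus, rose 1.85-fold (adjusted p = 0.00242), and *Nefl* fell to 0.438 of its earlier level (adjusted p = 0.00067). The calls of *Prph* and *Nes* were lost without any 1 of the 13.5 dpc samples or 15.5 dpc replicate 3, and that of *Nes* with the replicate block. *Vim*, the gene of vimentin and the most abundant of them, had a log2 fold change of -0.26 ± 0.09 SE (adjusted p = 0.082). Of 45 other keratin genes, 8 passed the filter and edgeR called 0 of them, with 1 at an unadjusted p under 0.05, and DESeq2 also called 0. The most abundant per length, *Krt80*, had 113.6 ± 6.253 normalised counts at 13.5 dpc and 124.2 ± 22.28 at 15.5 dpc.

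The other mucins and annexins were compared next. Of 11 other mucin genes only *Muc4* passed the filter, at 17.46 ± 4.372 normalised counts at 13.5 dpc and 33.66 ± 16.02 at 15.5 dpc (edgeR, adjusted p = 0.0997), so that *Muc1* was the one mucin measured at a high level. Of 9 other annexins tested, *Anxa13*, *Anxa1* and *Anxa7* rose, as *Anxa4* did, and the median log2 fold change was 0.37. *Anxa13*, the intestinal and renal annexin, went from 35.04 ± 0.8452 to 310.3 ± 44.3 (8.82-fold, log2 3.14 ± 0.16 SE, adjusted p = 0.000257). *Anxa1* rose 1.65-fold and *Anxa7* 1.51-fold, and the call of *Anxa1* was lost without 13.5 dpc replicate 1 or 3 or 15.5 dpc replicate 3. *Anxa6*, the most abundant per length, had a fold of 1.1 (adjusted p = 0.25).

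Receptors and relatives of osteopontin were measured beside *Spp1*. Of 11 tested, *Cd44* rose, 4 fell and the median log2 fold change was -0.45. *Cd44*, the hyaluronan receptor that also binds osteopontin, went from 115.2 ± 0.4688 to 237.9 ± 18.06 normalised counts (2.07-fold, adjusted p = 0.0015). The integrin subunits *Itga8*, *Itga9* and *Itgb5* fell to 0.318, 0.506 and 0.688 of their earlier levels (adjusted p = 0.00568, 0.0171 and 0.00614). The call of *Itga9* was lost without 13.5 dpc replicate 1 or 3 or 15.5 dpc replicate 3. *Itgb1*, the most abundant integrin gene of the list, had a fold of 0.927 (adjusted p = 0.415). Of the other genes of the osteopontin family, *Mepe* had 0 counts and *Dspp* and *Ibsp* at most 3 in any sample.

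For each gene, the protein-coding genes with the most similar course over the 6 samples were sought by the root mean square difference of log2 levels, each centred on its own mean, among 14010 genes compared. The nearest to *Krt8* were *Ptgr1* and *Ap1m2* (0.03 each on the log2 scale), and *Ap1m2* codes for the epithelial form of a clathrin adaptor subunit. The nearest to *Krt18* were *Syngr2* (0.03) and *Echdc2* (0.04), to *Krt19* *Tmem147* (0.05) and *Bst2* (0.06), and to *Krt23* *Il17rc* (0.06) and *Parp16* (0.08). *Muc1* was followed most closely by *Cdk18* (0.05) and *Ephx1* (0.06), and only 12 genes lay within 0.1 of it, the fewest of the 8. *Anxa4* was nearest to *Ak3* and *Slc35c1*, *Spp1* to *Scd1* and *Ncald*, and *Krt7* to *Cnn2* and *Ift22*. *Krt7* had 779 genes within 0.1, the most of the 8. None of the 8 was among the 2 nearest of another. With 6 samples such likeness describes these libraries only.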

How the data were processed

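Poly(A) RNA of 3 pools of wt pancreata at 13.5 dpc and of 3 at 15.5 dpc was sequenced from strand-specific libraries. Per the submitters' processing notes, bcl2fastq 1.8.4 and featureCounts 1.4.6 were used. The authors aligned reads to mm10 with GSNAP and deposited the raw counts of uniquely aligned reads per Ensembl gene, without normalisation, and the exon length of each gene, an annotation value. Other stages and genotypes were not analysed here.

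Symbols and coordinates came from an mm10 annotation by identifier (35449 of 37224 matched). Stages were compared in edgeR 4.0.16 under R 4.3.3 (filterByExpr, TMM factors of 0.847 to 1.08, quasi-likelihood test without covariates, with limma 3.58.1) and with DESeq2 1.42.0 as an alternative. Figures were drawn with matplotlib 3.10.9. Log2 levels used a prior count of 2. Normalised counts refer to a library of the geometric mean effective size, and SE is the size of the log2 fold change over the root of F. The narrower thresholds are those of the authors' methods. All replicate pairs within a stage differed beyond sampling noise (chi-square per gene from 1.57 to 59.8). The edgeR fit was tested on simulated counts, which had a smaller spread between samples than these data (common coefficient of variation 0.15). The other steps were not tested in this way.

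Beside the 8 genes, each list names up to 3 genes per direction among those called, ranked by fold change, and its most abundant gene per length over the 6 samples. *Epcam*, *Cdh1*, *Cpa1*, *Col3a1*, *Csf1r*, *Dsp* and genes at 0 or near it were named besides. Members and lists were chosen with earlier results of these data known, and the lists are described without a set test. Alternatives were other scalings, filters and references, the replicate block, removal of the most abundant genes or of a trend with gene length, and each sample left out in turn.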

Additional observations from a re-analysis of the deposited data

How the results depend on the processing

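Of 120 alternative values of the 8 genes (15 each), 104 kept their direction and side of the threshold, 14 fell short of it and 2 turned direction. All 7 calls held under other scalings and filters, DESeq2 and removal of the trend with gene length, and 3 to 7 held with each sample left out, against 1235 to 7620 of all genes, where the main count was 3467. Calls over all genes rose without 15.5 dpc replicate 1 (4266) or 2 (7620) and fell without any other sample, and the cause was not tested. Library size alone shifted the median of all genes to -0.22, and changes there are relative to it. This also holds for the genes whose calls were lost with this scale, among them *Jup*, *Prph*, *Nes* and *Aqp1*. *Krt7* turned to -0.153 with it and ranged from -0.055, without 15.5 dpc replicate 1, to 0.189 with each sample left out, and was at 0.311 with the trend with gene length removed. Also with library size alone, *Ambp* turned to -0.101, *Anxa6* to -0.075 and *Krt80* to -0.068. With the trend with gene length removed, 5104 genes were called, *Ambp* was at -0.097, *Krt80* at -0.00024 and *Col1a1* at 0.049. With each sample left out, *Col1a1* ranged from -0.261 to 0.029 and *Upk3b* from -0.039 to 0.04, each highest without 15.5 dpc replicate 1, and *Upk3b* was at 0.003 with RLE factors. None of these was called. The log2 difference of the keratin ratio was 0.563 with raw counts, because lengths are then not divided out, and 0.40 to 0.48 with each sample left out. Relative to *Cdh1* alone, 4 of the 8 genes remained separate, and relative to *Epcam* alone all 8. The share of all genes separate relative to *Cdh1* or *Epcam* alone was not measured. Relative to the mean of the epithelial genes it was 65.4%. Whether these counts are particular to the 8 genes therefore cannot be told.

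Replicate numbers did not pair the samples (correlations of deviations 0.22, -0.22 and 0.04). With the replicate block, 7 of the 8 genes and 2676 of all genes were called. Low counts limit *Krt23* most, with as few as 55 counts in a sample.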
